A study of Mus musculus with 8 samples.

Results

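The bone morphogenetic protein (BMP) and ALK1 pathway of lung endothelial cells (ECs) was followed through 10 genes. They comprise 3 ligand genes (Bmp2, Bmp4, Bmp6), 3 receptor genes (Bmpr2, Acvrl1, Eng) and 4 target genes (Smad6, Id1, Id2, Id3). Each was found by its gene symbol once among the 54532 genes of the deposited count table. The genes and the wider lists below were chosen with earlier results of these data known. Shares set beside those of all genes tested are therefore description only. The libraries came from wild-type (WT) C57BL/6J mouse pups at postnatal day 14, of which 4 libraries were from pups kept in normoxia (room air, 21% O2) and 4 from pups kept in hyperoxia (80% O2) since birth. Hyperoxia of this kind is used to model bronchopulmonary dysplasia. The methods of the study describe removal of CD45-positive leukocytes from dissociated lungs, after which beads carrying antibody to CD31 pulled out the ECs. The nursing dams were exchanged between the groups each day. The sources do not say whether a library came from 1 pup or from a pool, so p-values measure the spread between these libraries.

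BMPs are secreted dimers that bring together type I and type II receptor kinases, which then phosphorylate SMAD1, SMAD5 and SMAD9. These join SMAD4 and act on target genes in the nucleus, where the inhibitors of DNA binding (Id genes) and the feedback inhibitor Smad6 are typical direct targets. In ECs the type I receptor ALK1, encoded by Acvrl1, works with the type II receptor BMPR2 and the co-receptor endoglin (Eng) and responds to the circulating ligands BMP9 and BMP10. Inherited loss of BMPR2 causes pulmonary arterial hypertension, and loss of ALK1 or endoglin causes hereditary haemorrhagic telangiectasia, a disease of malformed vessels.

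The libraries held between 16098086 and 18300730 counts. The summed level of 12 pan-endothelial markers was similar in both groups. It was 17145 to 18048 CPM (counts scaled to library size, with TMM factors) in normoxia and 16701 to 17551 CPM in hyperoxia. Single markers moved both ways, as 4 rose and 3 fell (58.3% together, against 35.6% of all genes tested). The sum does not measure how pure the cells were. Markers of other cells moved with the groups. The 8 alveolar type 2 (AT2) markers rose, with sums of 238 to 338 CPM in normoxia and 753 to 2274 CPM in hyperoxia, as did the 7 alveolar type 1 (AT1) markers, with 73.0 to 90.5 and 144 to 388 CPM. Of 7 tested fibroblast markers 4 rose and of 7 tested mural markers 6 rose, with sums over all 8 genes of each list of 116 to 226 against 173 to 410.5 CPM (overlapping, with normoxia 1 above hyperoxia 3) and of 23.5 to 47.9 against 45.4 to 107 CPM (also overlapping). Of 8 leukocyte markers 1 rose and 1 fell, with sums of 161 to 336 and 209 to 512 CPM. No marker gene was at 0 in all libraries. Hyperoxia 3 held the lowest AT2, AT1, fibroblast and mural sums of its group. Among capillary markers, 4 of 6 general capillary genes fell and 1 rose, and all 6 aerocyte genes rose. In bulk libraries fewer cells of a type and less RNA per cell cannot be told apart.

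All 10 pathway genes passed the filter on low counts, and 8 of them changed in hyperoxia. The co-receptor gene Eng and the inhibitor gene Smad6 rose. The ligand genes Bmp2 and Bmp6, the receptor gene Bmpr2 and the target genes Id1, Id2 and Id3 fell, while Bmp4 and Acvrl1 were not past the threshold. A change here means a Benjamini-Hochberg adjusted p under 0.05 in edgeR's quasi-likelihood test over all 15564 genes tested. By the same rule 35.6% of all genes tested changed, 18.5% higher and 17.1% lower, and 43.7% of the 9299 genes with a mean of at least 10 CPM changed. The groups did not overlap in 8 of the 10 genes, against 35.4% of all genes tested. The median log2 fold change was -0.23 over the 10 genes and -0.0040 over all genes. Most changes were modest, and Bmp2 alone moved by 1 log2 unit or more, which 6.98% of all genes reached together with the p threshold. Without hyperoxia 3, the library with the fewest epithelial and mural transcripts of its group, 2 genes rose and 5 fell, Id1 being the one no longer past the threshold (adjusted p 0.0510).

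**Figure D1:**
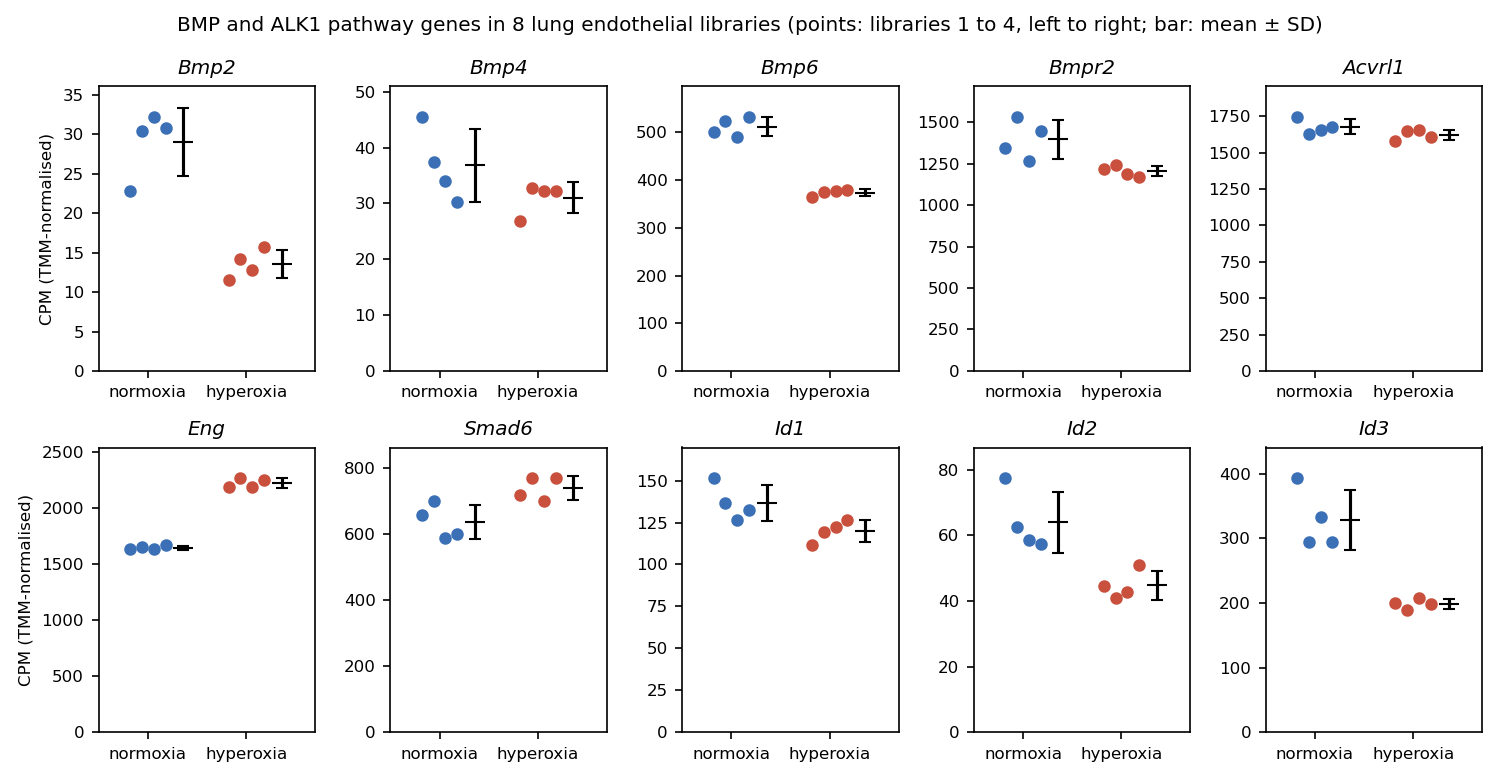
CPM of the 10 pathway genes (vertical axes, each starting at 0) in the 4 normoxia libraries (blue) and the 4 hyperoxia libraries (red), with each group's mean ± SD in black. Eng and Bmp6 show tight groups far apart, the groups of Bmp4 and Acvrl1 overlap, and Id3 falls from 294 to 393 CPM in normoxia to 189 to 208 CPM in hyperoxia.

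Among the ligand genes, hyperoxia lowered Bmp2 and Bmp6. BMP2 signals mainly through the type I receptors BMPR1A and BMPR1B. Bmp2 (ENSMUSG00000027358, chromosome 2, 133552159 to 133562885 in GRCm38, plus strand) stood at 22.8, 30.4, 32.3 and 30.8 CPM in normoxia 1 to 4 and at 11.6, 14.2, 12.8 and 15.8 CPM in hyperoxia 1 to 4. Every hyperoxia library lay below every normoxia library, although normoxia 1 was well under the other 3 of its group. The mean went from 29.1 ± 4.26 to 13.6 ± 1.80 CPM (SD, n = 4 each), or -1.10 in log2 units with an SE of 0.125 (adjusted p 7.71e-05).

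BMP6 is a ligand that ECs themselves secrete, best known from liver sinusoids, where it sets hepcidin and with it iron uptake. Bmp6 (ENSMUSG00000039004, chromosome 13, 38345107 to 38500302, plus strand) was the most abundant ligand gene, with 501, 524, 489 and 533 CPM in normoxia and 364, 376, 376 and 379.5 CPM in hyperoxia. The hyperoxia libraries were nearly equal to each other and lay clearly below the normoxia libraries. The mean went from 512 ± 20.3 to 374 ± 6.90 CPM, or -0.45 in log2 units with an SE of 0.0436 (adjusted p 2.41e-05). Exons of Txndc5 on the other strand cover 5.74% of the exon bases of Bmp6, and since the use of strand in the counting is not stated, that part of the count is uncertain.

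BMP4 is a close relative of BMP2 that guides lung branching and is made by mesenchyme as well as ECs. Bmp4 (ENSMUSG00000021835, chromosome 14, 46383520 to 46390669, minus strand) had 45.6, 37.4, 34.0 and 30.2 CPM in normoxia and 26.8, 32.7, 32.2 and 32.3 CPM in hyperoxia. The groups overlapped, because normoxia 4 lay below 3 of the hyperoxia libraries. The means were 36.8 ± 6.54 and 31.0 ± 2.78 CPM, with a log2 fold change of -0.25 (95% interval -0.51 to 0.01, adjusted p 0.126). Without normoxia 4 the adjusted p was 0.0436 and the log2 fold change -0.33.

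The 3 receptor genes moved apart. Endoglin is a co-receptor that captures BMP9 and BMP10 for ALK1 and is strongly expressed in proliferating ECs. Eng (ENSMUSG00000026814, chromosome 2, 32646595 to 32682669, plus strand) had 1632, 1651, 1629 and 1665 CPM in normoxia and 2186, 2266, 2188 and 2247 CPM in hyperoxia. The spread within each group was small and the gap between the groups wide. The mean rose from 1644 ± 17.1 to 2222 ± 40.9 CPM, or 0.43 in log2 units with an SE of 0.0390 (adjusted p 1.52e-05), which is 35.1% more. Exons of Fpgs on the other strand cover 1.51% of its exon bases.

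ALK1 is the type I receptor that is largely restricted to ECs. Acvrl1 (ENSMUSG00000000530, chromosome 15, 101128522 to 101145336, plus strand) had 1749, 1632, 1658 and 1677 CPM in normoxia and 1583, 1648, 1656 and 1608 CPM in hyperoxia. The groups overlapped. The means were 1679 ± 50.1 and 1624 ± 34.0 CPM, a difference of -0.05 in log2 units (95% interval -0.14 to 0.04, adjusted p 0.404). The interval did not reach a fall as large as that of Bmp6.

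BMPR2 is the type II receptor that pairs with ALK1. Bmpr2 (ENSMUSG00000067336, chromosome 1, 59763400 to 59879014, plus strand) had 1343, 1534, 1266 and 1449 CPM in normoxia and 1217, 1242, 1188 and 1171 CPM in hyperoxia. The groups did not overlap, but normoxia 3 came close to hyperoxia 2. The mean fell from 1398 ± 118 to 1205 ± 31.3 CPM, or -0.21 in log2 units with an SE of 0.0606 (adjusted p 0.0182). Without hyperoxia 4 the adjusted p was 0.0539 with a log2 fold change of -0.20.

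The target genes split as well, with all 3 Id genes lower and Smad6 higher. SMAD6 binds activated type I receptors and SMAD1 and so dampens BMP signalling. Smad6 (ENSMUSG00000036867, chromosome 9, 63953076 to 64022059, minus strand) had 658, 699, 588 and 599 CPM in normoxia and 718, 769, 701 and 769.96 CPM in hyperoxia. Hyperoxia 3 at 701 CPM was only just above normoxia 2 at 699 CPM. The mean rose from 636 ± 52.2 to 739.5 ± 35.5 CPM, or 0.22 in log2 units with an SE of 0.0632 (adjusted p 0.0210). The call did not hold without normoxia 3, normoxia 4, hyperoxia 2 or hyperoxia 4, when the adjusted p was 0.0530, 0.0631, 0.0635 and 0.0568 with log2 fold changes of 0.18 to 0.20.

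ID proteins have a helix-loop-helix domain without the part that contacts DNA, and they hold E proteins and other partners off their sites. Id3 (ENSMUSG00000007872, chromosome 4, 136143497 to 136145755, plus strand) fell most of them. It had 393, 295, 333 and 294 CPM in normoxia and 200.2, 189, 208 and 199 CPM in hyperoxia. The 4 hyperoxia libraries lay close together, far below the more scattered normoxia group. The mean went from 329 ± 46.7 to 199 ± 7.76 CPM, or -0.72 in log2 units with an SE of 0.0869 (adjusted p 0.000111).

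Id2 (ENSMUSG00000020644, chromosome 12, 25093799 to 25097140, minus strand) also fell. It had 77.5, 62.6, 58.6 and 57.4 CPM in normoxia and 44.7, 40.8, 42.6 and 50.9 CPM in hyperoxia. The groups did not overlap, with normoxia 1 and hyperoxia 4 the highest of their groups. The mean went from 64.0 ± 9.24 to 44.7 ± 4.38 CPM, or -0.52 in log2 units with an SE of 0.101 (adjusted p 0.00251).

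Id1 (ENSMUSG00000042745, chromosome 2, 152736251 to 152737410, plus strand), the target most often used as a readout of BMP signalling, fell least. It had 151, 137, 126 and 132 CPM in normoxia and 112, 119, 122 and 126 CPM in hyperoxia. Its groups all but touched, since normoxia 3 had 126.43 and hyperoxia 4 had 126.42 CPM. The mean went from 137 ± 10.7 to 119.9 ± 6.33 CPM, or -0.19 in log2 units with an SE of 0.0622 (adjusted p 0.0362). This call was fragile. It was lost in 11 of 19 alternative settings, among them scaling to the pan-endothelial markers (adjusted p 0.0781) and leaving out normoxia 1, normoxia 2, hyperoxia 1, hyperoxia 2 or hyperoxia 3 (0.0857, 0.0606, 0.0957, 0.0837 and 0.0510), although the direction stayed the same.

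**Figure D2:**
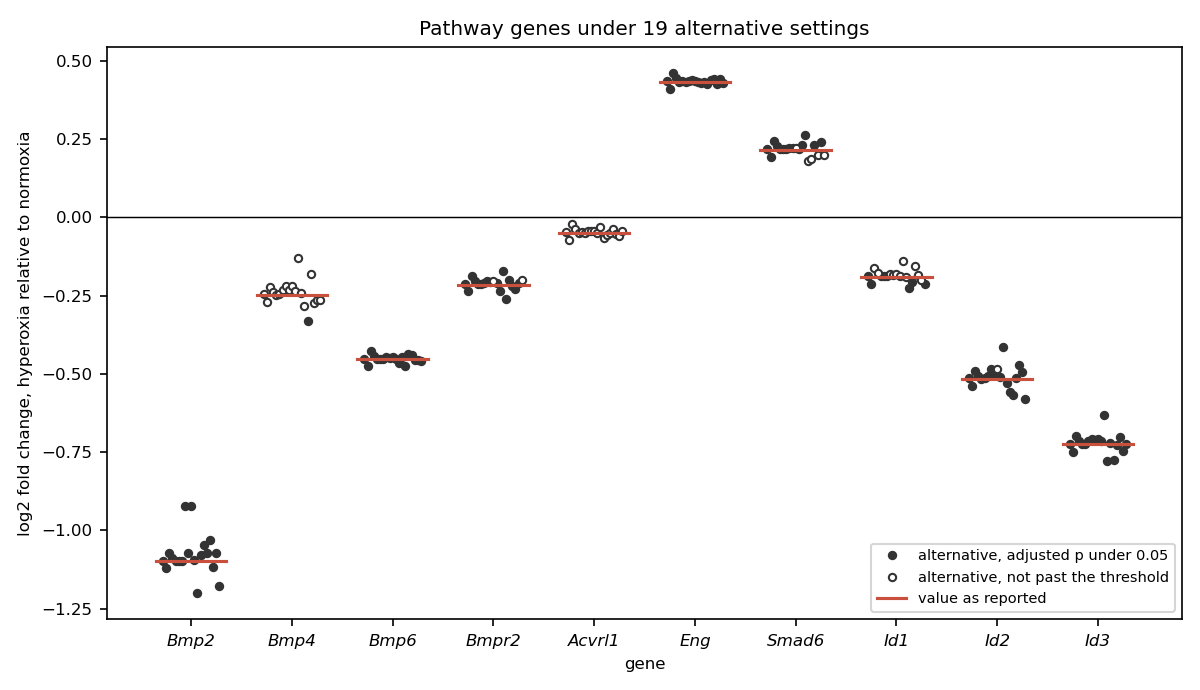
Log2 fold change of each pathway gene, hyperoxia relative to normoxia (vertical axis), as reported (red line) and in 19 alternative settings (filled points past an adjusted p of 0.05, open points not past it). No gene changed sign, and open points make up all 19 for Acvrl1, 18 for Bmp4, 11 for Id1, 5 for Smad6, 2 for Bmpr2 and 1 for Id2.

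A window before the RefSeq start was available for 7 of the 10 genes in the RefSeq table of build GRCm38.p6. It is shown for Eng and Smad6, the genes that rose, as its 250 bases, 5′ to 3′ on the strand of the gene. Capitals mark letters of 3 motifs known from SMAD binding, searched on both strands. They are GGCGCC, which is its own reverse complement, GGAGCC, which reads GGCTCC on the other strand, and GTCTG, which there reads CAGAC, and none of them overlaps another in these windows. The Eng window is chr2:32646345-32646594 and that of Smad6 is chr9:64022060-64022309.
Eng: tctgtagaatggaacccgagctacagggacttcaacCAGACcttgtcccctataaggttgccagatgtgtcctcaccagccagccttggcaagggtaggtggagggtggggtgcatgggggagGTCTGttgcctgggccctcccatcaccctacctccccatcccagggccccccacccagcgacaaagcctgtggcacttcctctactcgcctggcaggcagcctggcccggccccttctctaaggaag
Smad6: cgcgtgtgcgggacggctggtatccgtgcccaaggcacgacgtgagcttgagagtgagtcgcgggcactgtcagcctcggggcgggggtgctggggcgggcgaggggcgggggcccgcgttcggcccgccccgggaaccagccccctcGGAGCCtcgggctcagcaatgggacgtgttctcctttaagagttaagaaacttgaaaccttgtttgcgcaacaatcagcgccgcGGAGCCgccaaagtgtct

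The Eng window held GTCTG or its complement at 2 places and the Smad6 window held GGAGCC at 2 places. Of the genes that fell, Id3 had 1 GGAGCC and 2 GTCTG matches, Id2 had 1 GGCGCC and 1 GGAGCC, Bmpr2 had 1 GGCGCC and Bmp6 had 1 GTCTG. Bmp4 had 1 GGAGCC. The windows differ in kind, since those of Eng, Smad6 and Bmp4 hold no annotated exon base, while all 250 bases of the Id3, Bmpr2 and Bmp6 windows and 161 of the Id2 window lie in annotated exons, downstream of the first base of the gene in GENCODE. Such letters are common, since GGCGCC occurs in 9.59%, GGAGCC in 26.0% and GTCTG in 42.2% of the 32851 promoter windows of this length, and a match is a description of the sequence only. The windows of genes that rose and of genes that fell are therefore not compared.

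Levels of different genes can be compared only per length, for which the deposited FPKM (fragment counts corrected for gene length and library size) were used. In normoxia Eng (403 ± 3.88 FPKM) and Acvrl1 (391 ± 12.9 FPKM) led and their ranges overlapped. Smad6 (197 ± 15.6 FPKM) and Id3 (182 ± 26.4 FPKM) followed, overlapping each other, and then Bmp6 (130.2 ± 4.94 FPKM) and Id1 (117 ± 9.28 FPKM), which also overlapped. Bmpr2 (77.1 ± 6.24 FPKM), Id2 (26.0 ± 3.80 FPKM), Bmp4 (16.2 ± 2.90 FPKM) and Bmp2 (8.10 ± 1.18 FPKM) lay apart from their neighbours in this order. In hyperoxia the first 3 were separate, with Eng at 546 ± 10.7, Acvrl1 at 379 ± 9.11 and Smad6 at 229.5 ± 11.1 FPKM. Id3 (110.5 ± 4.30 FPKM), Id1 (103 ± 5.53 FPKM) and Bmp6 (95.4 ± 1.93 FPKM) had come together with overlapping ranges, and the order of the last 4 was the same as in normoxia.

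Ratios of FPKM within a library, which do not depend on the scaling of libraries, were set up after the values were seen and are given without a test. The ratio of Eng to Acvrl1 was 0.983 to 1.07 in normoxia and 1.39 to 1.47 in hyperoxia, so that the co-receptor transcript went from about equal to more abundant. The ratio of Smad6 to Id3, a pair of targets of the same pathway, was 0.935 to 1.33 in normoxia and 1.88 to 2.27 in hyperoxia. The Id genes did not fall in proportion, as the ratio of Id3 to Id1 was 1.40 to 1.71 in normoxia and 1.02 to 1.16 in hyperoxia. Summed over the 3 Id genes, the level was 325 ± 37.4 FPKM in normoxia and 232 ± 8.30 FPKM in hyperoxia.

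A wider set of 57 genes of the pathway, in 7 lists also chosen with earlier results known, put these genes in context. Of these 43 passed the filter on low counts, and 12 rose and 16 fell (65.1% together, against 35.6% of all genes tested), with a median log2 fold change of -0.03. Transcripts of the circulating ALK1 ligands were absent or scarce. Gdf2, which encodes BMP9 and is made in liver, had 0 counts in all 8 libraries, which allows up to 3 counts or 0.164 to 0.186 CPM per library. Bmp10, made in the heart, had at most 2 counts in a library. Of the 10 further ligand genes only Bmp5 and Bmp3 were tested. Both rose from scarce levels, Bmp5 from 0.978 to 2.57 CPM (1.40 in log2 units, adjusted p 0.0167) and Bmp3 from 0.953 to 2.32 CPM (1.29, adjusted p 0.0403), with overlapping groups. Bmp5 was not past the threshold without hyperoxia 2 (adjusted p 0.0571), nor Bmp3 without any 1 of the normoxia libraries, hyperoxia 1 or hyperoxia 2 (0.0514 to 0.130). Hyperoxia 3 was the lowest of its group for both genes and lay inside the normoxia range, with 1.83 CPM of Bmp5 and 0.973 CPM of Bmp3. It also held the lowest AT2, AT1, fibroblast and mural sums of the group, and the part of those cells was not tested.

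Of 6 tested further receptor genes 1 rose and 3 fell (66.7% together, against 35.6% of all genes tested). Bmpr1a, the type I receptor gene for BMP2 and BMP4, rose from 2.25 ± 0.582 to 9.05 ± 3.27 CPM (2.01 in log2 units with an SE of 0.295, adjusted p 0.000411). Its hyperoxia libraries had 9.14, 12.2, 4.52 and 10.4 CPM, with hyperoxia 3 lowest, as for the AT2, AT1, fibroblast and mural marker sums. The part of those cells in its level was not tested. The type II receptor genes Acvr2a (-0.26 in log2 units, adjusted p 0.0140) and Acvr2b (-0.43, adjusted p 0.0429) and the co-receptor gene Rgmb (-0.45, adjusted p 0.00142) fell, like Bmpr2. Acvr2b lost its call in 12 of 19 alternative settings, among them leaving out normoxia 2, normoxia 4 or any 1 hyperoxia library (0.0613 to 0.117). The type I receptor gene Acvr1, which encodes ALK2, stood at 67.7 and 66.3 CPM (adjusted p 0.745).

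Of the 7 SMAD and SMAD ubiquitin ligase genes 1 rose and 5 fell (85.7% together, against 35.6% of all genes tested). Smad1 rose from 59.7 ± 5.22 to 77.6 ± 3.58 CPM (0.38 in log2 units, adjusted p 0.00131), while its partner Smad5 fell from 193 ± 4.50 to 165 ± 6.35 CPM (-0.22, adjusted p 0.00229). Smad4, the SMAD shared with TGF-beta signalling, fell from 131 ± 5.47 to 104 ± 6.02 CPM (-0.34, adjusted p 0.000669). The inhibitor gene Smad7 fell from 249.8 ± 24.2 to 212 ± 11.6 CPM (-0.24, adjusted p 0.0220), opposite to Smad6. The Smad7 call was lost without normoxia 1 or hyperoxia 1 (adjusted p 0.0516 and 0.0592). It was also lost with the replicate number as a term (0.0616) and on log2 FPKM without a filter (0.18). Smurf2 (-0.14, adjusted p 0.0363) was also past the threshold but not without normoxia 1, 2 or 4 or hyperoxia 1, 2 or 3 (0.0625 to 0.103). The remaining pair, named after their values were seen, were Smurf1, which fell (-0.17, adjusted p 0.0304), and Smad9, at 4.91 and 6.12 CPM (adjusted p 0.158). Genes named in this way, here and below, were not followed singly through the alternative settings.

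The antagonists and modulators, most of them secreted, keep BMPs from their receptors or release them. Their list includes the decoy receptor gene Bambi. Of 14 tested genes 6 were higher and 0 lower in the edgeR test, against 18.5% and 17.1% of all genes tested. At an unadjusted p under 0.05 also 0 were lower. Chrd, which encodes chordin, rose from 1.35 ± 0.535 to 3.69 ± 0.327 CPM (1.46 in log2 units, adjusted p 0.00118), and Nbl1, a further secreted BMP antagonist, rose from 9.02 ± 2.40 to 21.4 ± 3.08 CPM (1.25, adjusted p 0.000328). Bmper (1.13, adjusted p 0.0380) lost its call without any 1 of the normoxia libraries, hyperoxia 1 or hyperoxia 2 (0.0553 to 0.125). In hyperoxia 3, Nbl1 had 16.9 CPM, below its range of 22.0 to 23.8 elsewhere in the group, and Bmper had 1.03 CPM, below 1.94 to 4.02 elsewhere and inside the normoxia range of 0.895 to 1.35, so both moved with the AT2, AT1, fibroblast and mural sums, and the part of those cells was not tested. Chrd did not share that dip, with 3.72 CPM in hyperoxia 3 against 3.31 to 4.10 elsewhere in the group. The abundant genes Crim1 (197 and 227 CPM, adjusted p 0.0565) and Bmp1 (151 and 159 CPM, adjusted p 0.284) were not past the threshold. Crim1 was past it without normoxia 2 or hyperoxia 1 (0.0357 and 0.0484). It was also past it in the DESeq2 test (0.0333), with scaling to the pan-endothelial markers (0.0358) and without the low-count filter (0.0271). Further risers, named after their values were seen, were Twsg1 (0.24, adjusted p 0.00436) and the decoy receptor gene Bambi (0.33, adjusted p 0.00149).

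Of 7 other genes that ALK1 or BMP9 is known to induce in ECs, 5 fell and 0 rose in the edgeR test. At an unadjusted p under 0.05 also 0 rose. Of all genes tested 17.1% fell and 18.5% rose. The median log2 fold change was -0.72 over the list and -0.0040 over all genes tested. Hey1, a repressor that ALK1 and Notch signalling both induce, fell from 274 ± 21.7 to 158 ± 10.98 CPM (-0.80 in log2 units with an SE of 0.0682, adjusted p 1.05e-05). Gja4, which encodes the gap junction protein connexin 37 of arterial ECs, fell from 194 ± 10.2 to 114 ± 5.31 CPM (-0.77, adjusted p 2.23e-06). Tmem100, an endothelial gene that depends on ALK1 in the embryo, was the most abundant of the list and fell from 1043 ± 59.7 to 853 ± 18.6 CPM (-0.29, adjusted p 0.00117). Id4, the remaining Id gene, fell from 8.11 ± 0.642 to 4.71 ± 0.590 CPM (-0.78, adjusted p 0.000850). Hey2 fell as well (-0.72, adjusted p 0.0269) but not without normoxia 1 or 3 or hyperoxia 1, 2 or 3 (0.0551 to 0.0773). Its groups overlapped, with 5.21 CPM in hyperoxia 4 and 4.70 CPM in normoxia 4. Gja5 (-0.09, adjusted p 0.360) and Atoh8 (0.16, adjusted p 0.512), named after their values were seen, were not past the threshold. In hyperoxia 3, Hey1 at 165, Gja4 at 119.9, Tmem100 at 878, Id4 at 4.35 and Hey2 at 3.15 CPM were below all normoxia libraries. The epithelial and mural sums of that library were the lowest in hyperoxia. Hey and connexin genes are also Notch targets and arterial genes, and 4 of 6 general capillary markers fell and 1 rose beside them. The part of EC subtypes and of other cells in the falls of these ALK1-induced genes was not tested.

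Genes that ALK1 is known to hold down in ECs did not move together. Apln, a peptide of tip cells and a marker of aerocytes, rose (1.51 in log2 units, adjusted p 2.31e-06), and so did Angpt2, an antagonist of the TIE2 receptor, from 26.4 ± 1.49 to 38.4 ± 2.75 CPM (0.54, adjusted p 0.000152). Cxcr4 fell from 92.4 ± 5.13 to 40.5 ± 8.13 CPM (-1.19, adjusted p 2.43e-05) and Esm1 fell from 59.96 ± 12.7 to 35.98 ± 4.03 CPM (-0.74, adjusted p 0.00234). Of the 3 E protein genes, whose products ID proteins bind, Tcf3 fell from 212 ± 8.34 to 159.9 ± 4.59 CPM (-0.41, adjusted p 5.72e-05). Tcf4, the most abundant, stood at 488 and 556 CPM (adjusted p 0.0672), and was past the threshold without normoxia 2 or hyperoxia 1 (0.0357 and 0.0319). The DESeq2 test (0.0388), scaling to the pan-endothelial markers (0.0329) and dropping the low-count filter (0.0344) also put Tcf4 past the threshold. Tcf12, named after its values were seen, was not past it (adjusted p 0.314).

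**Figure D3:**
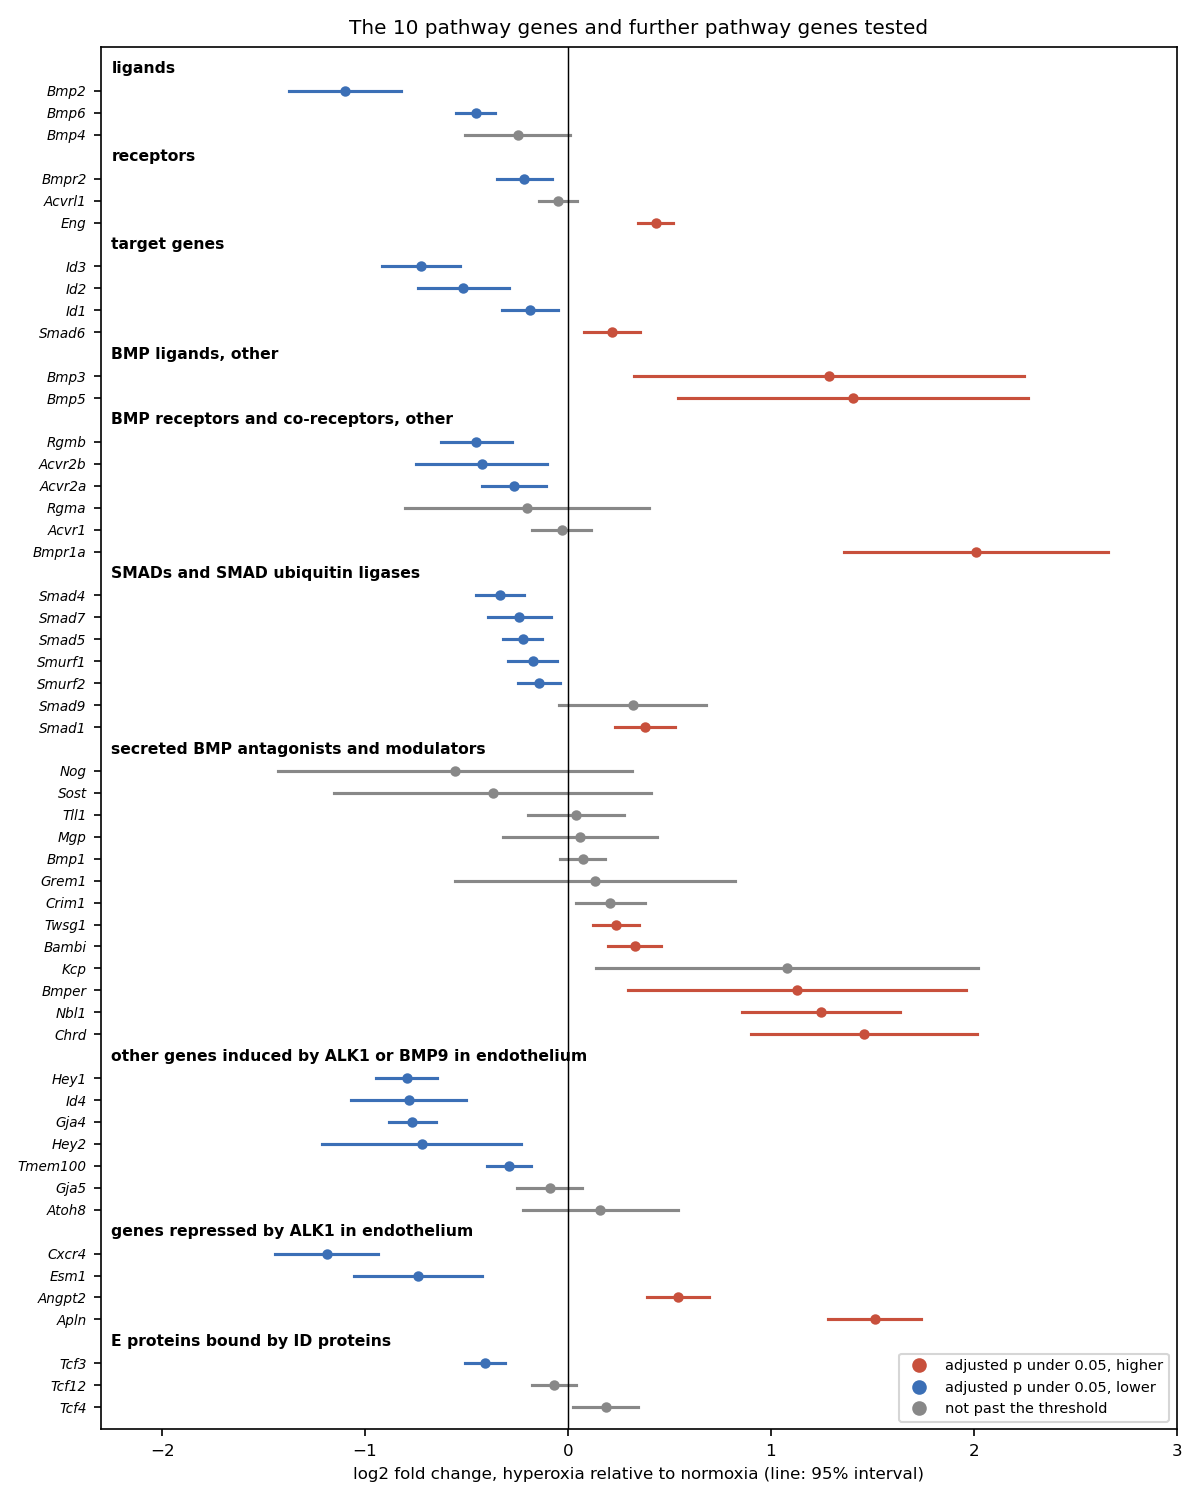
Log2 fold change, hyperoxia relative to normoxia (horizontal axis), with 95% intervals for the 10 pathway genes (top 3 blocks) and for tested genes of the 7 wider lists. The genes induced by ALK1 lie mostly left of 0, with 5 of 7 past the threshold and lower, against 17.1% of all genes tested. The antagonists and modulators lie mostly right of 0.

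The changes of the 10 genes were then set beside the marker sums library by library. Hyperoxia 3 had AT2 and AT1 marker sums 1.43 and 0.84 above the normoxia mean on the log2 scale, against 2.83 to 3.02 and 2.12 to 2.27 in the other hyperoxia libraries. For Eng the same library lay 0.41 above the normoxia mean, against 0.41 to 0.46, and for Bmp6 it stood at -0.44, against -0.49 to -0.43. Id3 stood at -0.66 in hyperoxia 3, against -0.80 to -0.72, and Bmp2 at -1.19, against -1.33 to -0.88. Smad6 stood at 0.14 there, against 0.17 to 0.28, and Acvrl1 stood at -0.02, against -0.08 to -0.03. Over the 10 genes, the hyperoxia library with the fewest epithelial transcripts lay within the range of the other 3 for Bmp2, Bmp4, Bmp6, Bmpr2, Eng, Id1 and Id2, and outside it, on the side nearer to the normoxia mean, for Id3, Smad6 and Acvrl1. The part of other cells in these values was not tested. The pan-endothelial sum stayed between -0.06 and 0.05 in all 8 libraries, and scaling to these markers left 2 of the 10 genes higher and 5 lower. In the hyperoxia libraries the general capillary sum stood at -0.39 to -0.18 and the aerocyte sum at 0.76 to 0.93. The part of EC subtypes in the changes of the 10 genes was not tested.

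**Figure D4:**
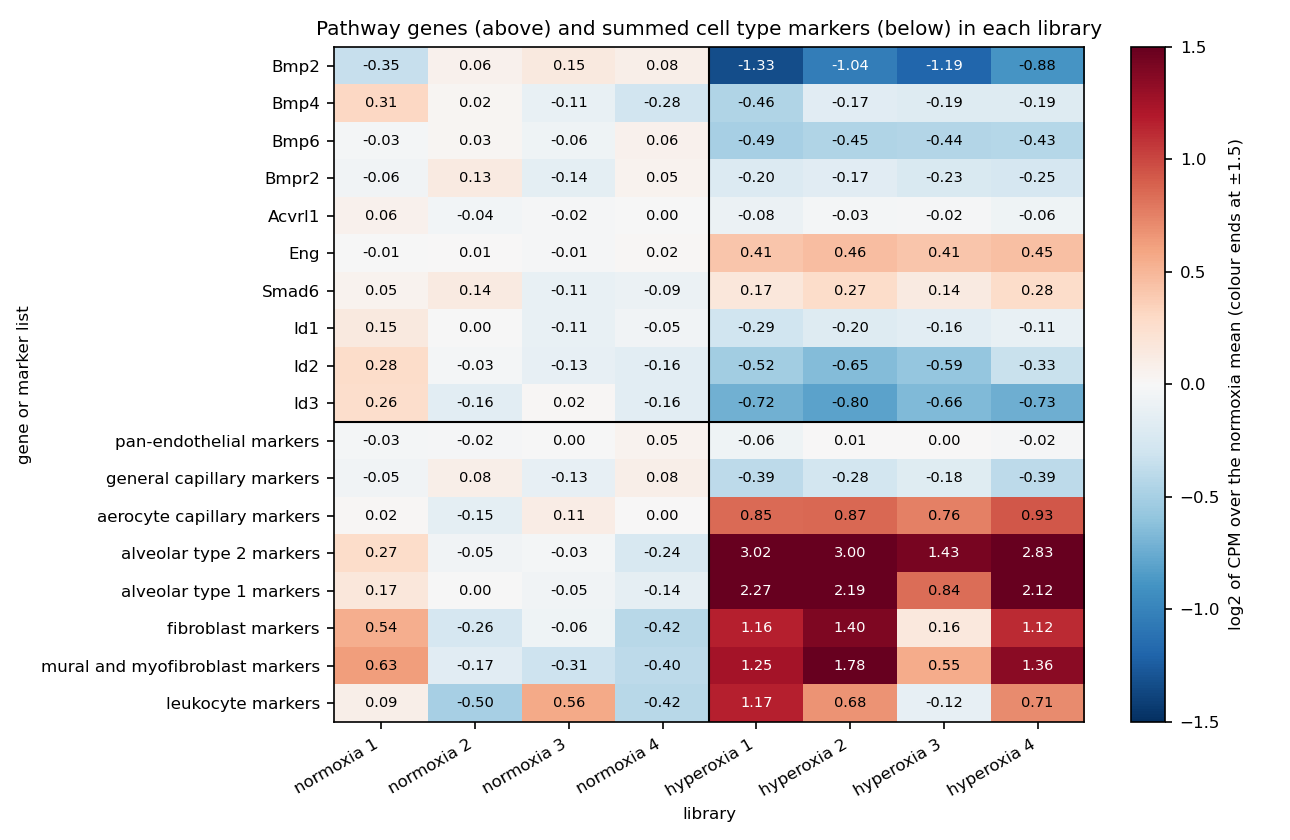
Log2 of the CPM of each pathway gene (upper rows) and of the summed CPM of each marker list (lower rows) over the mean of the normoxia libraries, for each library (columns). Red is above and blue below the normoxia mean, with colours ending at 1.5 in either direction. Eng is red and Bmp2, Bmp6, Id2 and Id3 are blue in all 4 hyperoxia libraries, while the AT2 row is 1.43 in hyperoxia 3 and 2.83 to 3.02 in the other hyperoxia libraries.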

How the data were processed

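Whole-number gene counts and FPKM of 54532 genes in 8 libraries were deposited by the authors. The submitters' processing notes name HISAT2 2.0.5, featureCounts 1.5.0-p3 and build mm10. Settings for strand and multi-mapping reads are not given in the sources used here. The deposited FPKM are the counts over gene length and total, scaled by a constant near 1 in each library, and served for levels between genes and as an alternative. Positions equalled those of GENCODE M21 (GRCm38) for all 10 genes.

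Counts were tested with edgeR 4.0.16 (quasi-likelihood test, TMM, filterByExpr, group as only term) in R 4.3.3, with Benjamini-Hochberg adjustment over 15564 genes and a threshold of 0.05. SEs and 95% intervals of log2 fold changes (hyperoxia relative to normoxia) follow from the F statistic. Alternatives used DESeq2 1.42.0, limma 3.58.1 (voom, and trend on log2 FPKM + 1 or + 0.1), other scalings and filters, the replicate number as a term, and leaving out each library. Scripts were tested on simulated counts. Groups came from sample titles.

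The genes and lists were chosen with earlier results of these data known. Of each wider list, up to 4 changed genes with the largest change and the 2 most abundant are named, except 1 gene that is counted but not reported here. Of each marker list, the 2 most abundant were to be named, and sums are given instead.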

Additional observations from a re-analysis of the deposited data

Results flagged for a closer look

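Values standing far from the other 3 libraries of their group were looked for with the 95% critical value of Dixon's test, past which about 1 in 20 groups fall by chance. There were 4 such values in 78 groups, against 3.9 by chance. Bmp4 stood at 26.8 CPM in hyperoxia 1, below 32.2 to 32.7 CPM in the other hyperoxia libraries. Bmpr1a stood at 3.12 CPM in normoxia 1, above 1.90 to 1.99 CPM in the others. Gja4 stood at 209.5 CPM in normoxia 1, above 188 to 189.98 CPM. Hey2 stood at 5.21 CPM in hyperoxia 4, above 3.11 to 3.31 CPM.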

How the results depend on the processing

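All 10 pathway genes kept their direction in 19 alternatives, which were other scalings (RLE, library totals, pan-endothelial markers), DESeq2, limma-voom, log2 FPKM tested with limma, changed filters, the replicate block and leaving out each library. Bmp2, Bmp6, Eng and Id3 stayed past the threshold and Acvrl1 stayed outside it in all 19. Bmpr2 lost its call in 2 (adjusted p 0.0539 and 0.115), Smad6 in 5 (up to 0.121), Id1 in 11 (up to 0.225) and Id2 in 1 (0.0510). Bmp4 gained one. On log2 FPKM without a filter, which tested 54532 genes, 1 of the 10 genes was higher and 3 lower, and of the wider lists 8 genes were higher and 9 lower. With an added minimum absolute log2 fold change of 1, 0 were higher and 1 lower, and of the wider lists 8 genes were higher and 1 lower, against 12 and 16 without it. On filtered log2 FPKM 6 genes of the wider lists were higher and 14 lower with either pseudocount, where fewer genes were tested. Leaving out single libraries gave 1 to 2 higher and 5 to 7 lower among the 10 genes, and 9 to 13 higher and 11 to 15 lower in the wider lists. Acvr1 ranged from -0.0855 to 0.0061 in log2 units when single libraries were left out and changed sign without normoxia 2 (adjusted p 0.957). The cause of these shifts was not tested.

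The titles number the libraries 1 to 4 in each group. Deviations of same-numbered libraries correlated between -0.140 and 0.119, 1 of 4 pairs over 0.1, and 1 of 8 libraries correlated best with its own number, so the numbers were not taken as pairs. With the replicate block 2 of the 10 genes were higher and 5 lower, Id1 being lost (adjusted p 0.0881), and 12 and 11 of the wider lists. Counting error is small at this depth for the 10 genes, the scarcest of which had at least 203 counts in every library, and larger for Bmp3, Bmp5 and Bmper.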

Other observations

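Normoxia 1 held the highest normoxia level of 5 of the 10 pathway genes, Bmp4, Acvrl1, Id1, Id2 and Id3, and the lowest of Bmp2. On the log2 scale its Id1, Id2 and Id3 levels lay 0.15, 0.28 and 0.26 above the normoxia mean. In the same library the fibroblast and mural marker sums lay 0.54 and 0.63 above that mean, the highest of the group. In hyperoxia those sums were 0.16 to 1.40 and 0.55 to 1.78 above the normoxia mean, and the 3 Id genes lay below it in all 4 libraries. The part of fibroblasts and mural cells in the Id levels was not tested. Without normoxia 1 the log2 fold changes of Id3 and Id2 were -0.63 and -0.41 and both stayed past the threshold. Hyperoxia 1 held the lowest hyperoxia level of 6 of the 10 genes, and hyperoxia 4 the highest of 5.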
